A study of Mus musculus with 6 samples.

Results

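The metallothioneins and zinc transporters examined here are 9 genes, taken by symbol from a table of 33000 genes counted in mouse frontal cortex. They comprise the metallothioneins Mt1, Mt2 and Mt3, the metal-responsive transcription factor Mtf1, the zinc importers Slc39a14, Slc39a10 and Slc39a8, and the zinc exporters Slc30a1 and Slc30a3. The TruSeq mRNA libraries came from 3 wild-type (WT) animals and 3 animals homozygous for GFAP-IL6, all of them C57BL/6 and 3 months old. In GFAP-IL6 animals the promoter of Gfap, an astrocyte gene, drives a transgene for the cytokine IL6, so that IL6 is made chronically and within the brain. All 9 genes were counted in every library and passed the low-count filter, as part of 15341 genes tested. Whole tissue was sequenced, so fewer cells of a type and less RNA per cell cannot be told apart in any value given here.

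Metallothioneins are small cysteine-rich proteins that bind zinc and copper and buffer the free ions in the cytoplasm. When free zinc rises, Mtf1 binds to metal response elements (MREs) in DNA and increases transcription of Mt1, Mt2 and Slc30a1. Mt1 and Mt2 are also known as acute-phase genes that respond to IL6 and to glucocorticoids, whereas Mt3 is found mainly in the brain and responds little to either. The Slc39a (ZIP) family moves zinc into the cytoplasm, and Slc39a14 is the importer that hepatocytes raise in response to IL6. The Slc30a (ZnT) family moves zinc out of the cytoplasm, with Slc30a1 at the plasma membrane and Slc30a3 on the synaptic vesicles of glutamatergic neurons.

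The 3 metallothionein genes lie next to each other on the plus strand of chromosome 8 of mm10, within 27721 bases. Mt3 spans chr8:94152607-94154146, Mt2 chr8:94172664-94173568 and Mt1 chr8:94179082-94180327. Mt2 and Mt1 are 5513 bases apart, and Mt3 ends 18517 bases before Mt2. The other genes lie elsewhere, with Mtf1 at chr4:124802104-124849800, Slc39a14 at chr14:70303469-70351425, Slc39a10 at chr1:46807544-46892852, Slc39a8 at chr3:135825279-135888572, Slc30a1 at chr1:191906767-191913247 and Slc30a3 at chr5:31086106-31108237. Promoters were taken from RefSeq (GRCm38.p6), from 250 bases before the RefSeq start to 50 bases after it, which can differ from the gene starts above. In those of Mt1 and Mt2 the core of the MRE was searched on both strands as TGCACNC or TGCGCNC. The windows below hold every match in these promoters and are shown because Mtf1 acts through this element. Capitals mark the MRE core, read on the plus strand, where a match on the other strand reads GNGTGCA or GNGCGCA.
Mt1, chr8:94179055-94179084, plus strand: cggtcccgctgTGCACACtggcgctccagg
Mt1, chr8:94179089-94179118, plus strand: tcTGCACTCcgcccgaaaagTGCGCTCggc
Mt2, chr8:94172384-94172413, plus strand: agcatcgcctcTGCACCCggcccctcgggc
Mt2, chr8:94172479-94172508, plus strand: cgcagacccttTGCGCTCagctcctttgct
Mt2, chr8:94172557-94172586, plus strand: ggggggagggcGTGTGCAggctctgtccca
Mt2, chr8:94172611-94172640, plus strand: gaattcgggtcGTGCGCAggcccaggggcg

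The promoter of Mt1 thus held 3 matches and that of Mt2 held 4. At least 3 matches occurred in 1.97% of the 32851 promoters in the RefSeq table, and at least 4 in 0.517%. Among the other genes, the promoter of Slc30a1 held 2 matches, and those of Mt3, Slc30a3 and Slc39a8 held 1 match each in 1 of their windows. The promoters of Mtf1 and Slc39a10 held none, and 25.7% of all promoters held at least 1. The motif TTCNNNGAA, which STAT3 recognises and which shares no position with an MRE match here, was found in none of the metallothionein promoters. It was found once in a promoter of Slc39a10, against 8.3% of all promoters. That window, chr1:46925727-46926026, belongs to a RefSeq start outside the span given above for Slc39a10. No window was searched for Slc39a14. A match to such short motifs describes letters in these windows and not a bound site.

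Markers of tissue next to the cortex set 2 libraries apart. In WT replicate 2 the summed level of 7 striatal markers was 373 CPM (counts scaled to library size), against 167 to 215.5 CPM in the other libraries, and WT replicate 3 held choroid plexus RNA as described with Mt1 and Mt2. Values without each of them are given beside the results that they move.

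The level of each gene relative to its length was compared first, in TPM, a measure of transcript share computed from the counts and the gene lengths of the table. These lengths were 540 bases for Mt1, 556 for Mt2 and 5205 for Slc39a14. The exon bases in the annotation were 1246, 588 and 10550, so the order of genes below depends on the lengths used. Mt3, which is expressed in neurons and astrocytes, was the most abundant of the 9 genes, with 928 ± 48.1 TPM (SD, n = 3) in WT and 864 ± 27.6 TPM (SD, n = 3) in GFAP-IL6. Mt1 followed with 625 ± 99.3 and 604 ± 61.3 TPM, and Mt2 with 342 ± 70.4 and 328 ± 50.3 TPM (SD, n = 3 each). These 3 genes did not overlap one another across the libraries of either group. Together they reached between 1640 TPM in GFAP-IL6 replicate 1 and 2080 TPM in WT replicate 3.

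Slc39a10 and Slc30a3 came next and overlapped each other, at 149 ± 21.2 and 146 ± 18.7 TPM in WT and 164 ± 8.13 and 161 ± 5.38 TPM in GFAP-IL6 (SD, n = 3 each). Slc30a1 had 22.2 ± 0.704 TPM in WT and 21.1 ± 1.57 TPM in GFAP-IL6, and Mtf1 had 15.8 ± 0.522 and 15.9 ± 1.03 TPM (SD, n = 3 each). Slc39a14 had 17.5 ± 2.01 TPM in WT, below Slc30a1 and overlapping Mtf1, and 23.5 ± 2.07 TPM in GFAP-IL6, where its range overlapped that of Slc30a1 (SD, n = 3 each). With the deposited lengths, Slc39a14 and Slc30a1 were the only 2 genes whose rank differed between the groups. Slc39a8 was the least abundant, with 2.85 ± 0.741 and 3.97 ± 0.942 TPM (SD, n = 3 each).

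**Figure D1:**
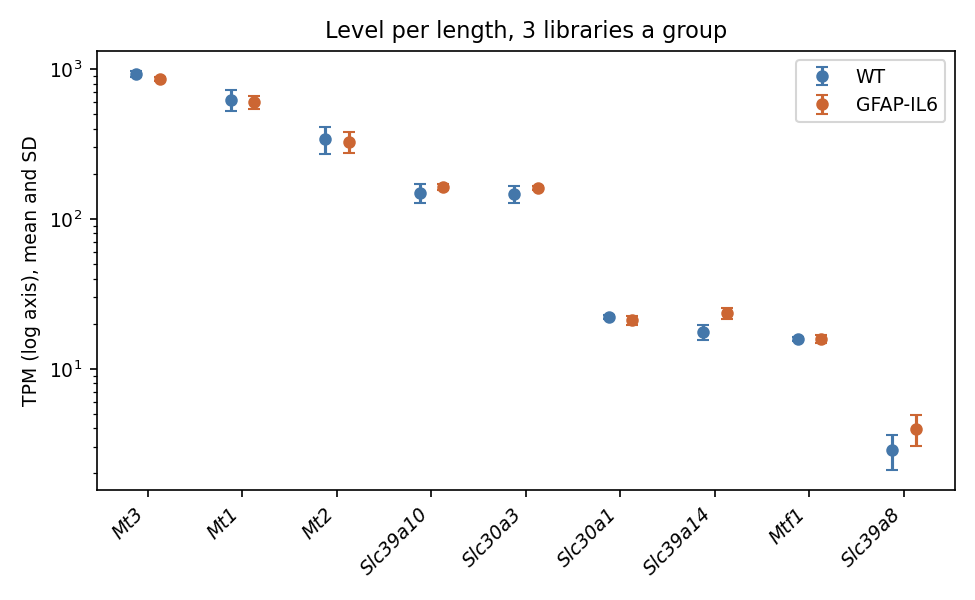
Mean level per length of the 9 genes in TPM on a log axis, in WT (blue) and GFAP-IL6 (orange), with bars for the SD over 3 libraries. With the deposited gene lengths, the order runs from Mt3 at 928 TPM to Slc39a8 at 2.85 TPM in WT, and only Slc39a14 and Slc30a1 exchange places between groups.

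None of the 9 genes was called higher or lower in GFAP-IL6 than in WT. By edgeR 0 of 9 were past an adjusted p of 0.05, against 2.86% of the 15341 genes tested, of which 2.65% were higher and 0.209% lower, and 1.38% also changed by more than 1 on the log2 scale. Each p-value sets the difference between the groups against the spread of libraries within them, with 3 animals in each group. DESeq2 and limma-voom also called 0 of 9, where they called 3.17% and 2.76% of the genes tested. At an unadjusted p under 0.05 edgeR gave 1 of the 9, Slc39a14, against 20.5% of the genes tested. DESeq2 gave 2, Slc39a14 and Mt3, against 14.7% of its genes with an adjusted p, and limma-voom gave Slc39a14 alone, against 20.4%. The groups did not overlap in 2 of 9 genes, with Slc39a14 above and Mt3 below WT, against 26.5% of all genes tested, 13.8% above and 12.7% below. The median log2 fold change was -0.07 over the 9 genes and 0.00 over all genes tested, with 4 values above 0 and 5 below. In the counts by edgeR and in that of groups without overlap, the share of the 9 genes was no higher than that of all genes tested.

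**Figure D2:**
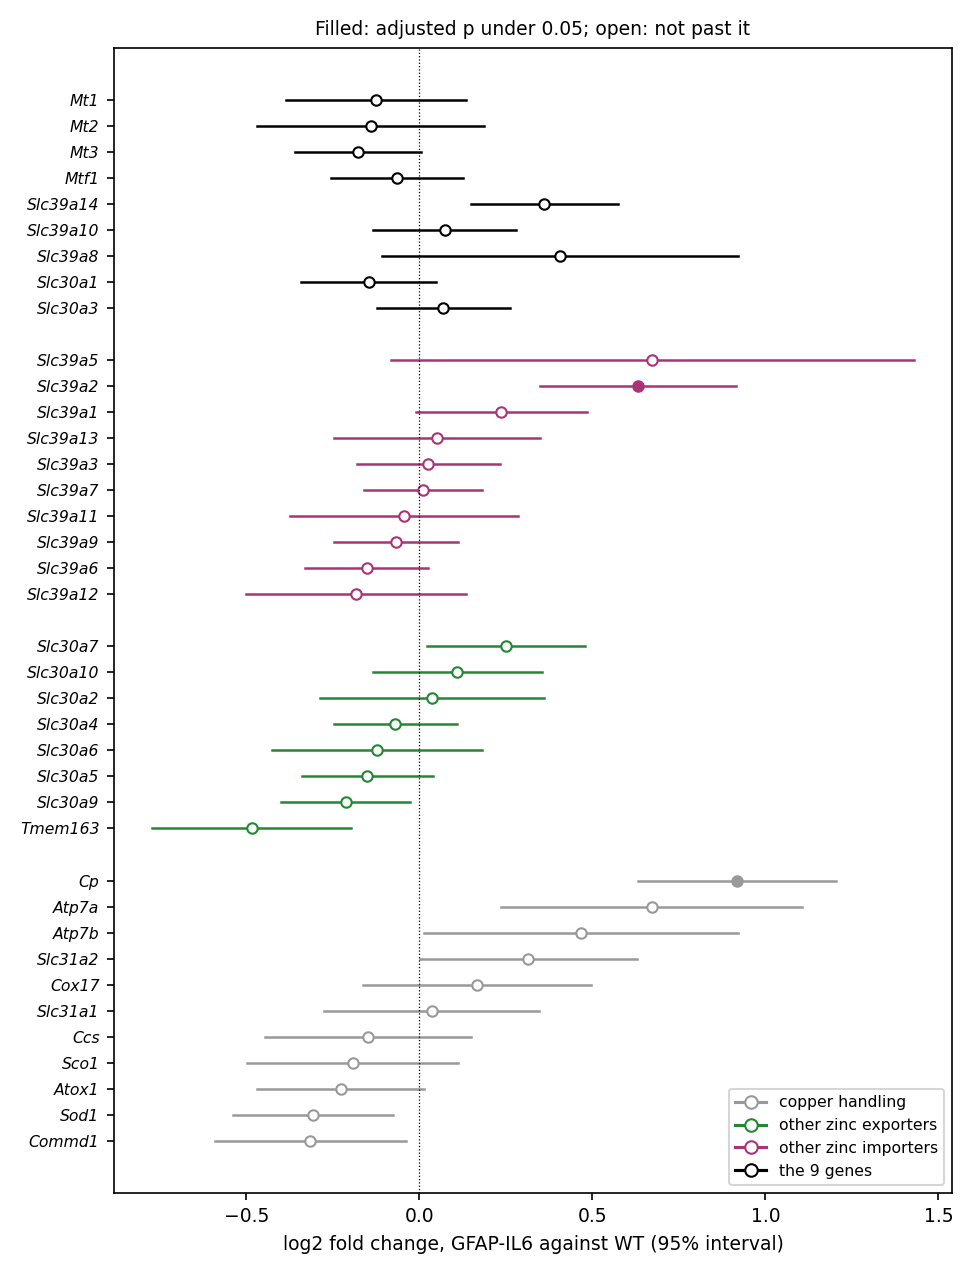
Log2 fold changes with 95% intervals from edgeR for the 9 genes (black), the other zinc importers and exporters, and copper handling genes. Intervals of 8 of the 9 genes cross 0, that of Slc39a14 does not, and among all genes drawn the adjusted p is under 0.05 for Slc39a2 and Cp.

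Levels of single genes in each library are given as CPM, counts scaled to library size with TMM factors, a scale that compares libraries and not genes, and the log2 fold changes are from edgeR, with p adjusted over all genes tested. Mt1, an inducible and widely expressed metallothionein, had 103, 119 and 143 CPM in WT replicates 1, 2 and 3 and 98.5, 123 and 114 CPM in the GFAP-IL6 replicates. The groups overlapped, and WT replicate 3 was the highest of all libraries. The log2 fold change of Mt1 was -0.12 ± 0.12 (SE; edgeR, adjusted p = 0.58), with a 95% interval of -0.38 to 0.14. On the linear scale the interval ran from 0.766-fold to 1.099-fold.

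Mt2, the second inducible metallothionein, had its lowest and highest values in the same libraries as Mt1. It had 52.8, 70.8 and 82.4 CPM in WT and 51.0, 69.2 and 67.9 CPM in GFAP-IL6. The groups overlapped over most of their range. The log2 fold change was -0.14 ± 0.15 (SE; edgeR, adjusted p = 0.626), with a 95% interval of -0.47 to 0.19, or 0.722-fold to 1.138-fold. In the annotation, 432 of the 588 exon bases of Mt2 lie opposite Gm45774, an antisense gene that had no row of its own in the count table. The strand setting of the counting was not stated, and without strand, reads of both genes cannot be told apart.

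Mt3 had 166, 195 and 180 CPM in WT and 153, 161 and 165 CPM in GFAP-IL6. All GFAP-IL6 libraries lay below all WT libraries, with the nearest ones at 166 and 165 CPM, and WT replicate 2 was the highest. By the quasi-likelihood test of edgeR the log2 fold change was -0.18 ± 0.08 (SE, adjusted p = 0.259), with a 95% interval of -0.36 to 0.01. The difference was not past the threshold, and on the linear scale the interval ran from 0.779-fold to 1.004-fold. Without WT replicate 2, the library rich in striatal markers, the log2 fold change of Mt3 was -0.12, and the part of striatal RNA in its level was not tested.

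**Figure D3:**
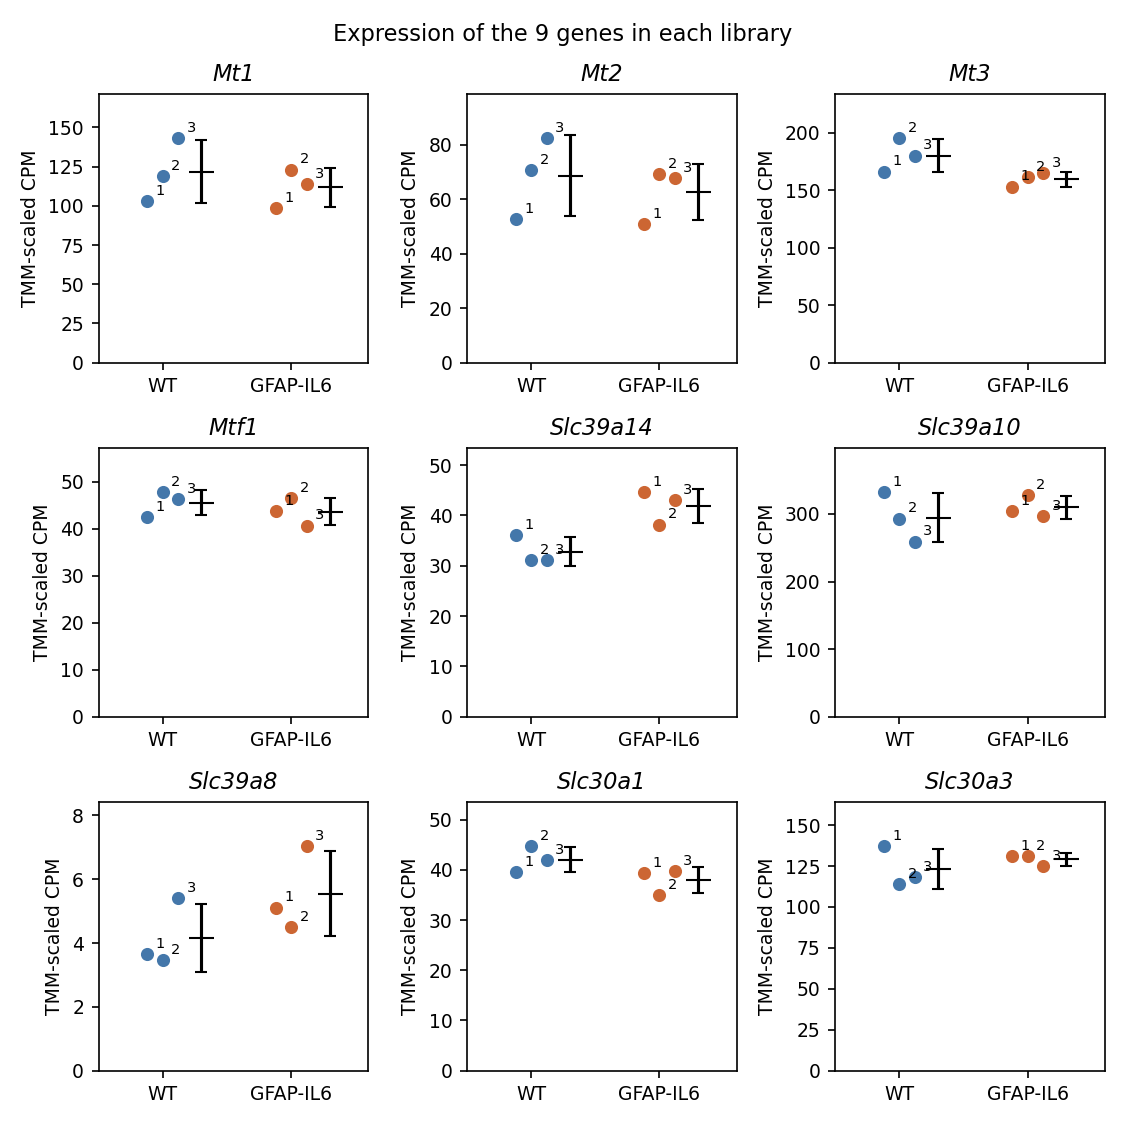
TMM-scaled CPM of the 9 genes in each library, with replicate numbers beside the points and the mean and SD over 3 libraries as a black bar. WT and GFAP-IL6 libraries overlap in 7 of the 9 genes; Slc39a14 is higher and Mt3 lower in every GFAP-IL6 library.

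Mt1 and Mt2 varied more between WT mice than 90.7% and 97.2% of genes of like level. The coefficient of variation in WT was 16.5% for Mt1 and 21.7% for Mt2, against a median of 7.65% and 7.89% over the 3256 and 4585 genes whose mean level was within 2-fold of theirs. In GFAP-IL6 it was 11.1% and 16.2%, against medians of 4.98% and 5.45%. For Mt3 it was 8.12% in WT and 3.99% in GFAP-IL6, near the medians of 7.75% and 4.77% over 2322 genes of like level. Mt1 and Mt2 moved together across the 6 libraries, with a Pearson coefficient of 0.965 and a Spearman coefficient of 0.943 on log2(CPM + 1). The exact two-sided permutation p was 0.00417 for the former and 0.0167 for the latter, or 0.0125 and 0.0501 after adjustment over the 3 metallothionein pairs. Without the 2 libraries farthest from the median of Mt1, WT replicate 3 and GFAP-IL6 replicate 1, the Pearson coefficient was 0.938. The ratio of Mt1 to Mt2 in TPM accordingly stayed between 1.73 and 2.01 in all libraries.

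Mt3 had lower coefficients with them, and the difference from the coefficient of Mt1 with Mt2 was not tested. Its Pearson coefficient was 0.564 with Mt1 and 0.637 with Mt2, with Spearman coefficients of 0.486 and 0.714. The exact two-sided permutation p was 0.243 and 0.156 for Pearson and 0.356 and 0.136 for Spearman, or 0.243, 0.234, 0.356 and 0.204 after adjustment. Without the 2 libraries farthest from the median of Mt1 or Mt2, the Pearson coefficients were 0.19 and 0.37. Leaving out the extremes narrows the range of levels, which can itself lower a coefficient. These values therefore cannot show whether a relation was lost. The sum of Mt1 and Mt2 was between 0.928 and 1.24 times the level of Mt3 in WT and between 0.967 and 1.18 times in GFAP-IL6, in TPM.

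The library with the most Mt1 and Mt2, WT replicate 3, also held the most RNA of choroid plexus, a tissue outside the cortex. The summed level of 5 choroid plexus markers was 610 CPM there, against 4.18 and 18.4 CPM in the other WT libraries and 4.35 to 59.2 CPM in GFAP-IL6, and Ttr alone had 550 CPM. Without WT replicate 3, the log2 fold changes of Mt1 and Mt2 were both 0.01, in place of -0.12 and -0.14. The part of choroid plexus RNA in the levels of Mt1 and Mt2 was not tested. Astrocytes are the main source of both genes in the cortex. Their homeostatic markers summed to 5112 to 6442 CPM in WT and 5626 to 6565 CPM in GFAP-IL6. By edgeR 0 of 7 were past an adjusted p of 0.05 and 2 of 7 had an unadjusted p under 0.05, against 2.86% and 20.5% of all genes tested. These 2 were Aqp4 and Aldh1l1, which went in opposite directions. Their log2 fold changes were 0.42 and -0.21 (edgeR, adjusted p = 0.106 and 0.235), and neither pair of groups overlapped.

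By Pearson correlation of log2(CPM + 1) over the 6 libraries, the genes most like Mt1 among 12082 genes with at least 5 CPM on average were Zfp61, Cd99l2, Sgk1, Ldah and Ezr, with coefficients from 0.965 to 0.978. Those most like Mt2 were Dock11, Cdh19, Twf1, Zfp61 and Pkmyt1, with coefficients from 0.975 to 0.984. By edgeR all 9 of them missed the threshold, and the smallest adjusted p was 0.281 for Sgk1, a kinase induced by glucocorticoids. The points are 6 libraries that differ in depth and in their striatal and choroid plexus markers, and these coefficients are given as a description.

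Mtf1, the zinc sensor that drives Mt1, Mt2 and Slc30a1, had 42.5, 47.7 and 46.3 CPM in WT and 43.7, 46.4 and 40.6 CPM in GFAP-IL6. The groups overlapped in part, with GFAP-IL6 replicate 3 the lowest and WT replicate 2 the highest library, and gave a log2 fold change of -0.07 ± 0.09 (SE; edgeR, adjusted p = 0.701) and a 95% interval of 0.838-fold to 1.09-fold. Slc30a1, the plasma membrane exporter that Mtf1 controls, had 39.5, 44.7 and 42.0 CPM in WT and 39.3, 35.0 and 39.7 CPM in GFAP-IL6. Its groups overlapped at their edges, and the log2 fold change was -0.15 ± 0.09 (SE; edgeR, adjusted p = 0.372), or 0.789-fold to 1.035-fold. Small parts of both genes lie opposite another gene. These were 721 of 8907 exon bases in Mtf1, opposite 1110065P20Rik with 161 to 437 counts per library, and 468 of 5244 in Slc30a1, opposite 1700034H15Rik with 44 to 99 counts.

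Slc30a3, which loads zinc into synaptic vesicles, had 137, 114 and 118 CPM in WT and 131, 131 and 125 CPM in GFAP-IL6. The GFAP-IL6 libraries all lay within the WT range. The log2 fold change was 0.07 ± 0.09 (SE; edgeR, adjusted p = 0.686), with an interval of 0.919-fold to 1.198-fold. Markers of glutamatergic cortical neurons, the cells that use this exporter, summed to 6176 to 7526 CPM in WT and 6895 to 7367 CPM in GFAP-IL6. Of these 7 markers, 0 were past an adjusted p of 0.05 by edgeR and 0 had an unadjusted p under 0.05. Over all genes tested these shares were 2.86% and 20.5%.

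Among the importers, Slc39a14 (ZIP14), which also carries iron and manganese, had the smallest adjusted p of the 9 genes. It had 36.1, 31.1 and 31.1 CPM in WT and 44.6, 38.2 and 43.0 CPM in GFAP-IL6. Every GFAP-IL6 library lay above every WT library, with the nearest ones 36.1 and 38.2 CPM. In GFAP-IL6 the log2 fold change was 0.36 ± 0.10 (SE; edgeR, adjusted p = 0.074), a 1.285-fold difference with a 95% interval of 1.109-fold to 1.488-fold. It did not pass the threshold over all genes. It passed without WT replicate 1 (edgeR, adjusted p = 0.0255), the WT library with the highest Slc39a14. That fit also called 1061 genes over all genes, against 439 with all libraries. Over the 14 alternative fits the adjusted p of Slc39a14 ranged from 0.0252 to 0.298.

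Slc39a10 (ZIP10), an importer that Mtf1 is known to repress, was the most strongly counted transporter. It had 332, 293 and 259 CPM in WT and 304, 328 and 297 CPM in GFAP-IL6. The groups overlapped, and WT spread more widely than GFAP-IL6. The log2 fold change was 0.07 ± 0.10 (SE; edgeR, adjusted p = 0.695), or 0.911-fold to 1.214-fold. Slc39a8 (ZIP8), the closest relative of Slc39a14, had only 34 to 86 counts per library. It had 3.66, 3.46 and 5.40 CPM in WT and 5.11, 4.49 and 7.03 CPM in GFAP-IL6. WT replicate 3 lay within the GFAP-IL6 range, and the log2 fold change of 0.41 ± 0.24 (SE; edgeR, adjusted p = 0.349) had the widest interval of the 9 genes, from 0.928-fold to 1.892-fold. A difference of this size could not be told from 0 with these libraries.

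Markers of microglia and of endothelial cells differed between the groups beside these importers. Microglial markers summed to 348 to 428 CPM in WT and 657 to 755 CPM in GFAP-IL6, with 6 of 7 higher by edgeR. Endothelial markers summed to 160 to 179 and 247 to 281 CPM, with 4 of 6 higher. Of all genes tested 2.65% were higher, and the markers were chosen with earlier results of these data known. The part of these cells in the values of Slc39a14 and Slc39a8 was not tested. None of 6 markers of infiltrating leukocytes had more than 4 counts in any library, and 1 of them, Cd3d, had 0 counts in all. Cd3e had 0 counts in every WT library and 3, 1 and 2 in GFAP-IL6. S100a8 and S100a9 had their highest counts, 4 each, in WT replicate 2. All 6 had too few counts to be tested.

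The libraries held 11591066 to 16877001 counts in WT and 7559524 to 11072008 in GFAP-IL6, so that the floor of 3 counts was between 0.178 and 0.397 CPM. For Il6 the WT libraries held 0, 2 and 0 reads and the GFAP-IL6 libraries 12, 10 and 24, and Gfap rose from 94.5 ± 24.8 to 678 ± 178.5 CPM (SD, n = 3 each; edgeR, adjusted p = 5.49e-06). The counts do not separate transgene from endogenous transcripts. Of 8 other genes tested that are known to respond to IL6 through STAT3, 7 were higher at an adjusted p of 0.05 by edgeR. Their median log2 fold change was 1.26, and 2.65% of all genes tested were called higher. This list was chosen with earlier results of these data known, so the count is a description and not separate evidence. Of 2 examples picked after their values were seen, Socs3, the feedback inhibitor of the IL6 receptor, had 2.44, 2.80 and 2.95 CPM in WT and 10.0, 8.98 and 12.3 CPM in GFAP-IL6. Stat3 itself had 47.8, 46.7 and 48.2 CPM in WT and 72.0, 78.8 and 97.2 CPM in GFAP-IL6, and both were past the threshold, with adjusted p of 7.37e-05 and 0.000858 by edgeR. The glucocorticoid response list had 0 of 9 genes past the threshold by edgeR, with a median log2 fold change of 0.14. At an unadjusted p under 0.05 it had 2 of 9, against 20.5% of all genes tested. These were Zbtb16 and Per1, with log2 fold changes of 0.54 and 0.49 (edgeR, adjusted p = 0.0531 and 0.155). The list of NRF2 targets, which respond to oxidants and heavy metals, had 0 of 7 and 1 of 7, with a median of -0.08. The 1 gene was Hmox1, with a log2 fold change of 0.73 (edgeR, adjusted p = 0.0691). Its level was above WT in every GFAP-IL6 library, while 5 of the 7 targets had a log2 fold change below 0.

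The wider zinc and copper genes were taken from general lists, which were chosen with earlier results of these data known. Their counts are a description and not separate evidence. Of the 11 other zinc importers 10 were tested, with a median log2 fold change of 0.02. At an adjusted p of 0.05 by edgeR 1 was higher and 0 were lower, against 2.65% and 0.209% of all genes tested. The higher gene was Slc39a2 (ZIP2), a plasma membrane importer, with 10.5, 10.8 and 10.0 CPM in WT and 14.2, 16.2 and 18.4 CPM in GFAP-IL6. Its libraries did not overlap, and the log2 fold change was 0.63 ± 0.13 (SE; edgeR, adjusted p = 0.0191). This call was lost without WT replicate 3 (0.0729), GFAP-IL6 replicate 2 (0.0738) or GFAP-IL6 replicate 3 (0.139), and with all libraries thinned to the smallest (0.0729, all adjusted p by edgeR), while the log2 fold change stayed between 0.54 and 0.73. Slc39a1 and Slc39a5, with the next smallest p, had log2 fold changes of 0.24 and 0.67 and adjusted p of 0.264 and 0.294 by edgeR.

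Of the 9 other zinc exporters 8 were tested and 0 were past the threshold by edgeR, with a median log2 fold change of -0.10. At an unadjusted p under 0.05 there were 3, against 20.5% of all genes tested. Tmem163, a zinc transporter of synaptic vesicles, had 15.8, 18.2 and 21.3 CPM in WT and 13.3, 12.4 and 14.0 CPM in GFAP-IL6. The groups did not overlap, and the log2 fold change was -0.48 ± 0.13 (SE; edgeR, adjusted p = 0.0776). It passed the threshold in 4 of its 14 alternative fits, with adjusted p by edgeR of 0.0233 without WT replicate 1, 0.0169 with no low-count filter, 0.0114 after thinning to the smallest library and 0.0476 with the replicate block. Over all genes these fits called 1061, 1154, 385 and 750 in that order, against 439 in the main fit. Over the 14 fits the adjusted p of Tmem163 ranged from 0.0114 to 0.235. Without WT replicate 3 its log2 fold change was -0.37 (edgeR, adjusted p = 0.204). The other 2 exporters at an unadjusted p under 0.05 went in opposite directions. Their log2 fold changes were -0.21 ± 0.09 for Slc30a9 and 0.25 ± 0.10 for Slc30a7 (SE, adjusted p = 0.193 and 0.207 by edgeR), the latter named after its value was seen. Without WT replicate 2 that of Slc30a9 was -0.14. Mt4, the fourth metallothionein, which is typical of stratified epithelium, had 0 counts in all 6 libraries.

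Copper shares the metallothioneins with zinc, so its handling genes were listed as well. Of 11 genes tested 1 was higher and 0 were lower by edgeR, against 2.65% and 0.209% of all genes tested. At an unadjusted p under 0.05 there were 6, against 20.5%. The groups did not overlap in 8, with 5 above and 3 below WT, against 26.5%. The median log2 fold change was 0.04. Cp, the copper-carrying ferroxidase ceruloplasmin, rose from 13.3, 15.8 and 11.8 CPM in WT to 23.8, 24.7 and 29.1 CPM in GFAP-IL6. This log2 difference was 0.92 ± 0.13 (SE; edgeR, adjusted p = 0.00146). Atp7a, a copper export pump, and Sod1, a copper and zinc enzyme, had log2 fold changes of 0.67 and -0.31, with adjusted p of 0.1 and 0.141 by edgeR. Without WT replicate 2 these values were 0.46 and -0.17.

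Leaving out each library in turn showed where single mice weighed on the values. The log2 fold change stayed between 0.31 and 0.44 for Slc39a14 and between -0.23 and -0.12 for Mt3. It ranged from -0.23 to 0.01 for Mt1 and from -0.29 to 0.01 for Mt2, and from 0.21 to 0.64 for Slc39a8. The values for Slc39a8 were lowest without GFAP-IL6 replicate 3 and highest without WT replicate 3, the library with the highest level in each group.

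**Figure D4:**
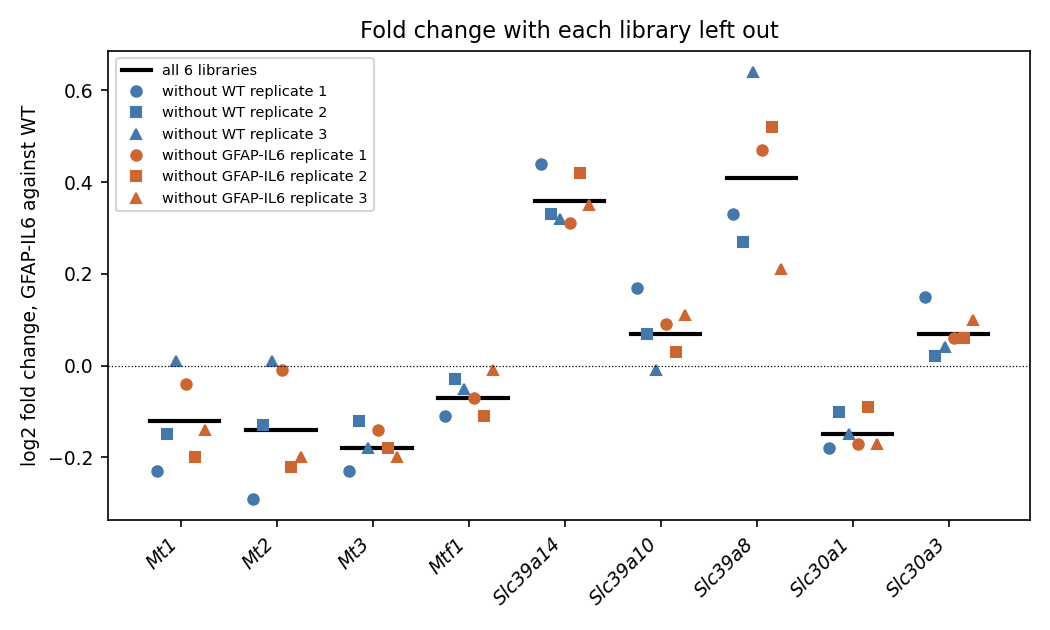
Log2 fold change of the 9 genes with all 6 libraries (black bar) and with each library left out (WT in blue, GFAP-IL6 in orange, symbols for replicates). Without WT replicate 3 the values of Mt1 and Mt2 are 0.01; those of Slc39a14 lie between 0.31 and 0.44 in all 6 fits.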

How the data were processed

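RNA of frontal cortex from 3 WT and 3 homozygous GFAP-IL6 mice was sequenced as TruSeq mRNA libraries. The authors aligned the reads with STAR (version 2.4 in the submitters' processing notes) and counted them per gene with featureCounts. The deposited table holds raw counts, without normalization, with a gene length column. The notes name hg19 and the study's methods mm10, and the identifiers are of mouse. All 9 identifiers were found in GENCODE release M21 (mm10), from which the coordinates and exons were taken. Promoters were from RefSeq (GRCm38.p6), with entries for 8 of the 9 genes.

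Groups were taken from the sample labels. The genes and lists were chosen with earlier results of these data known. Counts were filtered with filterByExpr, scaled by TMM and tested with the quasi-likelihood test of edgeR 4.0.16 (R 4.3.3), with Benjamini-Hochberg adjustment over 15341 genes and a threshold of 0.05. Intervals are at 95% and are from this fit. DESeq2 1.42.0, limma-voom (limma 3.58.1), other scalings and filters, thinning to the smallest library, a replicate block and leaving out each library were alternatives. The edgeR fit was tested on simulated data. All members were named, with genes of the wider lists past the threshold, up to 4 a list, and 1 or 2 not past it, and the 5 genes most like Mt1 and Mt2. Total counts per library ranged from 7559524 to 16877001. Floors cover counting error only.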

Additional observations from a re-analysis of the deposited data

How the results depend on the processing

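The number of the 9 genes past the threshold was 0 with DESeq2, limma-voom, other scalings, a filter on mean CPM and thinning. It was 1, Slc39a14, with no low-count filter (adjusted p = 0.0252 by edgeR) and with the replicate block (0.0376), and 0 to 1 when single libraries were left out. Leaving out single libraries gave log2 fold changes from -0.23 to 0.01 for Mt1, -0.29 to 0.01 for Mt2 and -0.01 to 0.17 for Slc39a10, and the sign opposite to that from all libraries appeared without WT replicate 3 in each. Of 126 values for the 9 genes, 120 kept their direction and side of the threshold. Over all genes the number called was 439, and 1154 with no filter, 750 with the replicate block and 187 (without GFAP-IL6 replicate 3) to 1061 (without WT replicate 1) when single libraries were left out. In the wider zinc and copper lists it was 2, and 5 with no filter, 3 with the block and 1 to 3 when single libraries were left out. The cause of these differences was not tested. Replicate numbers are shared between the groups. Deviations of same-numbered libraries correlated at 0.123, 0.019 and 0.05, and those of differently numbered libraries at -0.099 to 0.051. As the former were not all above 0.1, the main fit treated the libraries as sharing only a number. These values do not settle whether the libraries were paired. WT replicates 1 and 3 correlated best with their own number, and WT replicate 2 with GFAP-IL6 replicate 3 (0.051). Scalings moved the median log2 fold change of all genes to at most 0.02. Slc39a8 had the fewest counts of the 9 genes, 34 to 86 per library.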
